A study of Mus musculus with 18 samples.

Results

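Cxcl9, Cxcl10 and Cxcl11 encode the ligands of the chemokine receptor CXCR3, and were chosen by that receptor as 3 of the 54446 genes in the table. Their transcripts were measured by RNA sequencing in 18 libraries of mouse eosinophils, with 3 libraries in each of 6 groups. All groups were C57BL/6 eosinophils washed from the peritoneum of Il5Tg mice, which overproduce the eosinophil growth factor IL-5 from a transgene. All were cultured with apoptotic cells (ACs), which were wild-type thymocytes driven into apoptosis by dexamethasone. In the Type 1 experiment the cells received nothing beside the ACs, or E. coli (E. coli + ACs), or IFN-γ (IFN-γ + ACs), or IFN-γ followed by E. coli (IFN-γ + E. coli + ACs). In the IL-4 experiment they received ACs alone or IL-4 + ACs. Ages and sexes of the mice that gave the eosinophils, and doses of E. coli, IFN-γ and IL-4, are not given in the sources used here. The study speaks of biological replicates, and for its comparison of eosinophils with and without ACs places each library in its own mouse. The labels tie no library of these groups to a mouse, and whether groups shared mice is not given in the sources used here, so p-values measure the spread between these libraries. The eosinophils were depleted of Thy1.2+ and B220+ cells before culture and were selected again on Siglec-F after it. The study then assessed the selected cells by flow cytometry and reports high viability and purity.

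CXCL9, CXCL10 and CXCL11 recruit activated T cells and natural killer cells that carry CXCR3. Their genes are classic targets of interferons: IFN-γ acts through its receptor and the Janus kinases, and induces the transcription factor IRF1. Cxcl10 is also known as a target of NF-κB and of type I interferon, through an interferon-stimulated response element (ISRE), and so responds to bacterial products sensed by Toll-like receptors (TLRs) such as TLR4. CXCL11 also binds the atypical receptor ACKR3. The C57BL/6 allele of Cxcl11 is known to carry a frameshift that prevents an intact protein, so its transcript is a readout of the locus and not of a chemokine in these mice.

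The 3 genes stand next to each other on the minus strand of chromosome 5 in GRCm38. Cxcl9 (ENSMUSG00000029417.9) spans 92321347 to 92328079, Cxcl10 (ENSMUSG00000034855.13) spans 92346638 to 92348889 and Cxcl11 (ENSMUSG00000060183.6) spans 92359544 to 92365485. The annotation calls Cxcl9 and Cxcl10 protein-coding and Cxcl11 a polymorphic pseudogene. Gaps of 18558 and 10654 bases separate them, and the whole cluster covers 44139 bases.

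RefSeq promoter windows, from 250 bases before to 50 bases after the start of the gene in GRCm38.p6, were available for 2 of the 3 genes, and are shown because these neighbours responded differently to E. coli. The windows lie on the minus strand at chr5:92328030-92328329 for Cxcl9 and chr5:92348840-92349139 for Cxcl10, and no base is marked, because no motif was searched.
Cxcl9: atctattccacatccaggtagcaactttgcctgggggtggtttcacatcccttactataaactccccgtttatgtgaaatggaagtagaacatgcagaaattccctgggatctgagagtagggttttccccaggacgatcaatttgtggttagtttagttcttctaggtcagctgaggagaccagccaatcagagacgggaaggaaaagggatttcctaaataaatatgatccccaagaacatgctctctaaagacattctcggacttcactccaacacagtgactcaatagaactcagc
Cxcl10: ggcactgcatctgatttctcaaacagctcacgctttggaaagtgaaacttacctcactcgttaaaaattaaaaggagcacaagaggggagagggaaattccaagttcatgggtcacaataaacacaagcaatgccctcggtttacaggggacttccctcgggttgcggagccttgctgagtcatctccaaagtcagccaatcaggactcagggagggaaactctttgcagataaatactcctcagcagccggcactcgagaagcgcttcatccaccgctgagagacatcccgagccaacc
G and C made up 44.3% of the Cxcl9 window and 50.3% of the Cxcl10 window. Over all 32817 windows of this length in the table the median was 52.7%, with 39.7% at the 10th percentile.

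CEL-Seq2, the library method used, counts the 3′ ends of transcripts, and the deposited value is a count divided by a size factor of the library (normalized count). Libraries held 779421 to 7782072 reads assigned to genes, with a median of 4461121. In the IL-4 experiment both replicate 3 libraries were shallow, with 849705 reads for IL-4 + ACs and 779421 for ACs, and in them 1 read stands for normalized counts of 5.14 and 5.36. Levels are compared between groups for each gene, and not between genes. All 13 eosinophil markers examined, among them Siglecf, Ccr3 and Epx, had reads in every group of 3 libraries, and their summed normalized counts ranged from 19398 to 21031 in ACs of the Type 1 experiment, from 21797 to 23196 in E. coli + ACs, from 12949 to 14545 in IFN-γ + ACs and from 19106 to 22064 in IFN-γ + E. coli + ACs. Transcripts of macrophage marker genes were also abundant, and their values stand beside the results below. The summed levels of the other lists in the Type 1 experiment ranged from 215.3 to 714.9 for thymocytes and T cells, from 67.3 to 175.8 for dendritic cells, from 1663 to 2797 for neutrophils, from 5.64 to 67.6 for mast cells and basophils and from 199.2 to 1451 for B cells. In bulk samples fewer cells of a type and less RNA per cell cannot be told apart.

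Cxcl9 transcripts were low in the Type 1 experiment without IFN-γ and among the most induced with IFN-γ. In the IL-4 experiment they were near the detection limit. In ACs of the Type 1 experiment the normalized counts were 13.8, 23.5 and 7.34 (14.9 ± 8.11, SD, n = 3), which rest on 51 reads in all. In E. coli + ACs they were 17.6, 9.81 and 21.99 (16.5 ± 6.17, n = 3), on 58 reads. These groups overlapped, and E. coli left the Cxcl9 level within the spread of its controls. In IFN-γ + ACs the values were 2476, 3268 and 2723 (2822.3 ± 405.2, n = 3), and in IFN-γ + E. coli + ACs they were 1119, 1054 and 1581 (1251.4 ± 287.4, n = 3). Every library with IFN-γ lay far above every library without it, and the IFN-γ libraries lay above those with the combination. In the IL-4 experiment Cxcl9 stood at 1.5, 3.11 and 0 in ACs and at 2.32, 0.53 and 0 in IL-4 + ACs, which are 6 and 5 reads over the 3 libraries. Within the Type 1 experiment, IFN-γ + ACs was highest and IFN-γ + E. coli + ACs next, then E. coli + ACs and ACs, which did not differ beyond their spread. The groups of the IL-4 experiment overlapped each other. Their values were lower still, but come from a separate experiment with shallow replicate 3 libraries.

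Cxcl10 transcripts were present in every library and rose with each Type 1 stimulus. In ACs of the Type 1 experiment the normalized counts were 207, 133 and 134 (157.9 ± 42.2, SD, n = 3). In E. coli + ACs they were 2707, 2166 and 2222 (2365.3 ± 297.6, n = 3), and in IFN-γ + ACs they were 2447, 2649 and 3448 (2847.7 ± 529.2, n = 3). The stimulated groups lay above ACs without overlap, while E. coli + ACs and IFN-γ + ACs overlapped each other. In IFN-γ + E. coli + ACs Cxcl10 reached 3557, 3486 and 4906 (3983.0 ± 800.3, n = 3), with each value above all libraries of the single stimuli. In the IL-4 experiment the values were 138, 102 and 483 in ACs (241.0 ± 210.0, n = 3) and 103, 87.5 and 298 in IL-4 + ACs (162.7 ± 117.5, n = 3). The replicate 3 library was the high value in both of these groups, and the groups overlapped each other and the ACs of the Type 1 experiment.

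Cxcl11 transcripts were raised by each Type 1 stimulus, and stood higher in every library with IFN-γ than in those with E. coli alone. In ACs of the Type 1 experiment the normalized counts were 5.69, 2.82 and 4.08 (4.2 ± 1.44, SD, n = 3), on 15 reads. In E. coli + ACs they were 68.65, 76.85 and 60.7 (68.7 ± 8.08, n = 3), above all ACs libraries. With IFN-γ + ACs the values were 166, 205 and 267 (212.7 ± 50.7, n = 3), and with IFN-γ + E. coli + ACs they were 212, 169.8 and 221 (201.0 ± 27.3, n = 3). The groups with IFN-γ overlapped each other and lay above E. coli + ACs. In the IL-4 experiment Cxcl11 stood at 0, 0.78 and 5.36 in ACs and at 1.16, 0 and 0 in IL-4 + ACs, which are 2 reads in each group. The ACs groups of both experiments overlapped through the single read of the shallow replicate 3 library. The IL-4 + ACs values lay below all ACs libraries of the Type 1 experiment. In IL-4 + ACs replicate 3, however, 1 read stands for 5.14, so its 0 cannot be ranked below them.

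**Figure D1:**
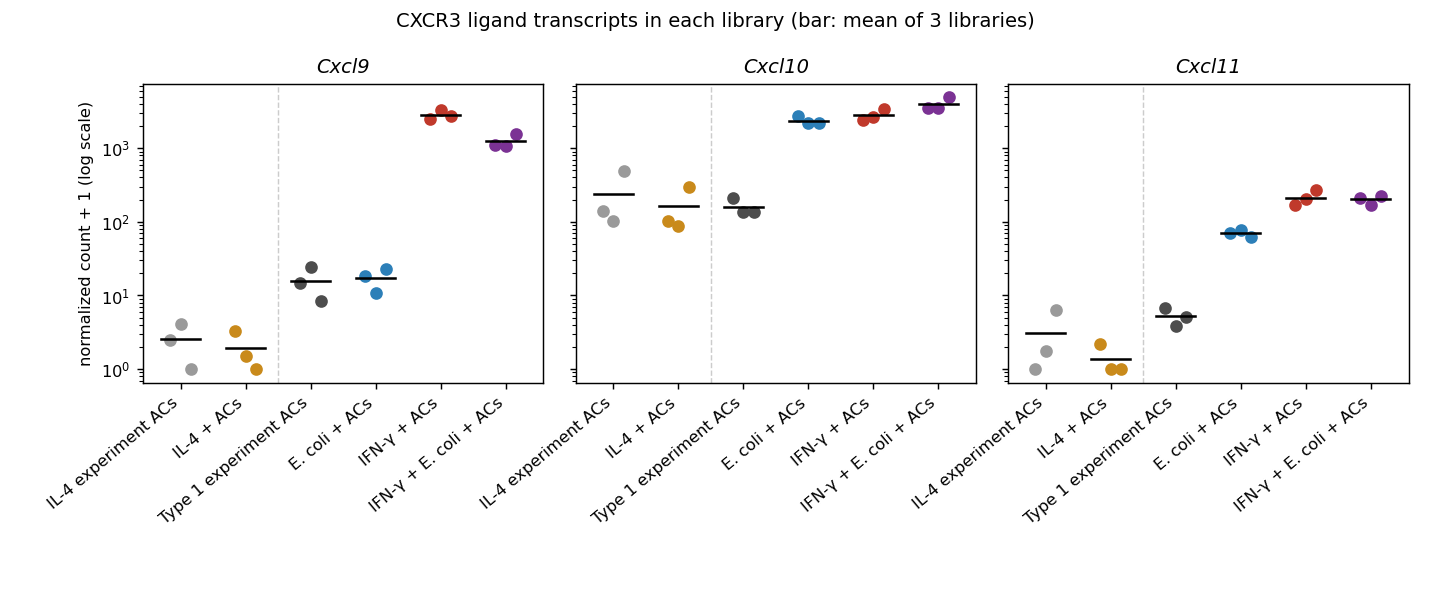
Normalized count + 1 on a log scale (vertical axis) of Cxcl9, Cxcl10 and Cxcl11 in each of the 18 libraries, by group (horizontal axis), with points for libraries, bars for the means of 3 libraries and a dashed line between the IL-4 and Type 1 experiments. Cxcl9 is high only in the groups with IFN-γ, Cxcl10 and Cxcl11 are also high with E. coli alone, and in the IL-4 experiment the replicate 3 points, drawn at the right of their groups, are the highest for Cxcl10.

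E. coli with ACs, the bacterial stimulus alone, raised Cxcl10 and Cxcl11 but not Cxcl9 past the threshold. The fit of limma, which called a gene when its adjusted p was under 0.05 and it changed 1.5-fold or more, put 2 of the 3 ligands higher, where 5.05% of the 10166 genes tested were called higher and 5.25% lower. Cxcl10 rose by 3.92 on the log2 scale (SE 0.18, adjusted p = 3.6e-11 by limma). Its log2 difference was the 7th highest of all genes tested. Cxcl11 rose 16.4-fold (log2 difference 3.78, SE 0.25, adjusted p = 6e-09 by limma), the 10th highest. Both groups of values were apart, as for 38.3% of genes tested. For Cxcl9 the log2 difference was 0.20 with a 95% interval from -0.44 to 0.85 (adjusted p = 0.75 by limma), and its sign depended on single libraries, at -0.19 without ACs replicate 3 and -0.03 without E. coli + ACs replicate 3. The depth behind these Cxcl9 values was low, at 3.7 reads per 1000000 in ACs (95% Poisson interval 2.76 to 4.87) and 3.91 in E. coli + ACs (2.97 to 5.05), counting error only.

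IFN-γ with ACs raised all 3 ligands, and Cxcl9 more than any other gene tested. All 3 were called higher by limma, against 11.4% of genes tested (9.96% were called lower), and none overlapped with ACs, as for 42.9% of genes. Cxcl9 rose 189.8-fold between group means (log2 difference 7.60, SE 0.31, adjusted p = 1.2e-12 by limma), rank 1 of 10166. Cxcl11 rose 50.7-fold (log2 difference 5.37, SE 0.25, adjusted p = 6.8e-12 by limma), rank 7. Cxcl10 rose by 4.18 on the log2 scale (SE 0.18, adjusted p = 1.5e-12 by limma), rank 19. Because 1 was added to each value, the log2 difference of Cxcl11 lay below those of edgeR and DESeq2 on recovered reads (5.56 and 5.62). For Cxcl9 these gave 7.56 and 7.58, close to the 7.60 of limma.

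IFN-γ + E. coli + ACs against ACs also gave 3 of 3 ligands higher, where 14.7% of genes tested were called higher, 17.2% were called lower and 48.8% did not overlap. Cxcl9 rose 84.1-fold (log2 difference 6.41, adjusted p = 7.9e-12 by limma) and was again rank 1. Cxcl11 rose 47.9-fold (5.31, adjusted p = 6.2e-12 by limma), rank 5. Cxcl10 rose 25.2-fold (4.66, adjusted p = 2.1e-13 by limma), rank 14. These comparisons share the 3 ACs libraries with those of the single stimuli.

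Adding E. coli to IFN-γ separated the neighbours. Cxcl9 was lower with the combination than with IFN-γ alone, by 2.26-fold between means (log2 difference -1.19, SE 0.31, 95% interval -1.83 to -0.54, adjusted p = 0.01 by limma). It was the 1 ligand called lower, where 8.61% of genes tested were called lower and 5.96% higher. Cxcl10 was 1.4-fold higher (log2 difference 0.48, 95% interval 0.11 to 0.85), which did not pass (adjusted p = 0.061 by limma). The values of Cxcl9 and of Cxcl10 did not overlap between these groups, as for 29.6% of genes tested. For Cxcl11 the log2 difference was -0.06 with an interval from -0.59 to 0.46 (adjusted p = 0.89 by limma) and the groups overlapped. The call on Cxcl9 was lost without IFN-γ + ACs replicate 2 (-1.08, adjusted p = 0.053 by limma) and with all 18 libraries in one fit (-1.19, adjusted p = 0.11), and its adjusted p ranged from 6e-08 to 0.11 over 20 alternatives. The Cxcl10 difference passed without IFN-γ + ACs replicate 3 (0.63, adjusted p = 0.022 by limma).

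Markers of macrophages moved with this difference. All 15 markers of the list had reads in every group, including Csf1r, Mertk, C1qa, Vsig4 and Timd4. Their summed normalized counts ranged from 18867 to 25034 in ACs, from 9089 to 12032 in E. coli + ACs, from 31134 to 42057 in IFN-γ + ACs and from 10727 to 11565 in IFN-γ + E. coli + ACs. Between the combination and IFN-γ alone, 13 of the 14 markers tested were called lower by limma, with a median log2 difference of -1.66. C1qa, a subunit of complement C1q, fell by 2.88 on the log2 scale (adjusted p = 2.4e-07 by limma). Vsig4, a complement receptor, fell by 2.51 (adjusted p = 8.9e-07 by limma). Cxcl9 equalled 7.87% ± 0.837 (SD, n = 3) of the macrophage sum in IFN-γ + ACs and 11.3% ± 2.12 in the combination, so relative to these markers it was not lower. Relative to the eosinophil sum it equalled 20.4% ± 4.28 and 6.07% ± 1.37. The part of these markers in the Cxcl9 difference was not tested.

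In E. coli + ACs against ACs, 7 of 14 markers tested were called lower and none higher (median -0.85), while Cxcl10 and Cxcl11 rose. In IFN-γ + ACs against ACs, 5 were called higher and 1 lower (median 0.45), Marco by 2.17 and Mertk by 1.81 on the log2 scale (adjusted p = 4.6e-09 and 4.5e-07 by limma), and all ligands rose. Cxcl10 equalled 0.708% of the macrophage sum in ACs, 21.9% in E. coli + ACs, 8.12% in IFN-γ + ACs and 35.9% in the combination. Over the eosinophil marker list, 5 of 10 tested were called lower in IFN-γ + ACs and none higher. Of all genes tested, 9.96% were called lower there and 11.4% higher. Alox15 had the highest mean of this list, at 9407.8 in ACs and 5455.9 in IFN-γ + ACs, beside median sums of 20751.0 and 14276.4. Whether other cells contributed to the eosinophil sum was not tested.

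**Figure D2:**
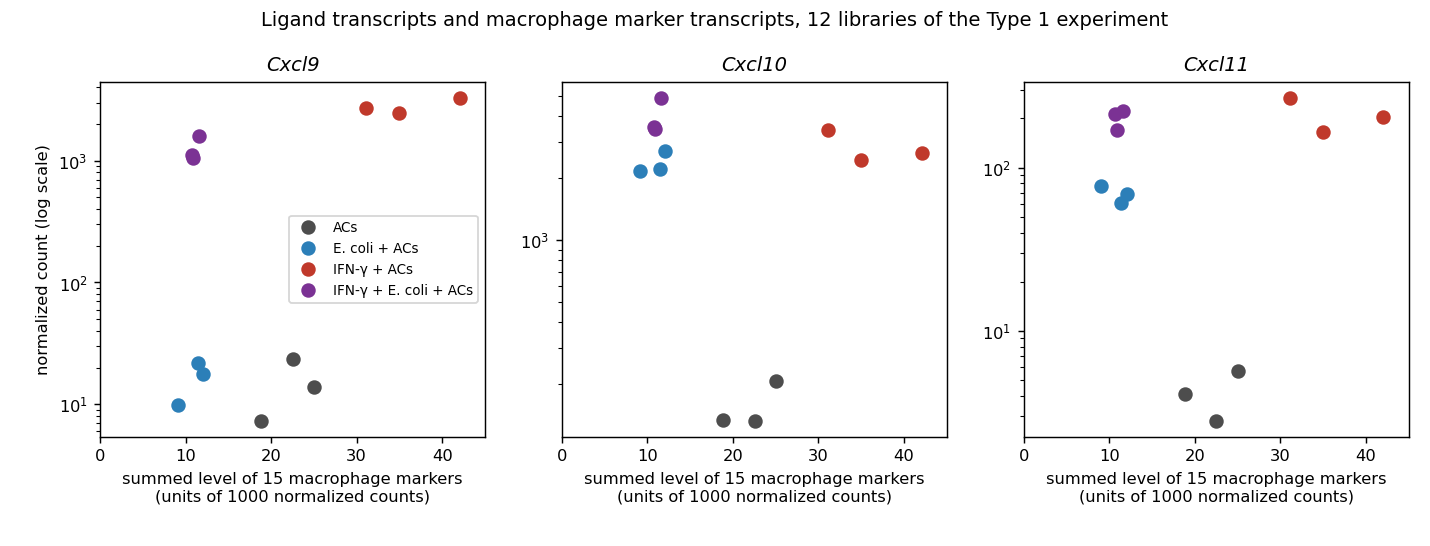
Normalized count of each ligand (vertical axis, log scale) against the summed normalized count of 15 macrophage markers in units of 1000 (horizontal axis) in the 12 libraries of the Type 1 experiment, with 1 point per library coloured by group. The IFN-γ + ACs libraries have marker sums from 31134 to 42057 and the IFN-γ + E. coli + ACs libraries from 10727 to 11565, and Cxcl9 is lower in the latter while Cxcl10 is not.

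Adding IFN-γ to E. coli raised all 3 ligands, where 9.79% of genes tested were called higher, 9.57% were called lower and 39.3% did not overlap. Cxcl9 rose 76.0-fold over E. coli + ACs (log2 difference 6.21, adjusted p = 3.3e-11 by limma). Cxcl11 rose 2.92-fold (1.53, SE 0.25, adjusted p = 0.00018 by limma). Cxcl10 rose 1.68-fold (0.74, SE 0.18, adjusted p = 0.0044 by limma). This Cxcl10 call was lost with all 18 libraries in one fit (0.74, adjusted p = 0.23 by limma) and without IFN-γ + E. coli + ACs replicate 3, where the change was just under the fold threshold (0.58, adjusted p = 0.026).

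The interaction, the log2 change with the combination less the log2 changes with each stimulus alone, was negative for Cxcl10 and Cxcl11. These 2 of 3 ligands were called lower, where 4.28% of genes tested were and 3.16% were called higher. Cxcl11 had the lowest interaction of all 10166 genes, at -3.84 (SE 0.35, 95% interval -4.58 to -3.10, adjusted p = 2.7e-06 by limma). Cxcl10 had the 8th lowest, at -3.44 (SE 0.25, 95% interval -3.96 to -2.92, adjusted p = 1e-07 by limma). With 5 added to each value in place of 1, the interaction was -3.07 for Cxcl11 and -3.41 for Cxcl10. The rank of Cxcl11 thus depended on the value added, as its ACs level was low. For Cxcl9 the interaction was -1.39 (SE 0.44, 95% interval -2.31 to -0.48), which did not pass (adjusted p = 0.059 by limma). It passed in 6 of 20 alternatives, whose adjusted p ranged from 0.0095 to 0.28.

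On the scale of normalized counts the combination also stayed under the sum of the single rises for each gene. For Cxcl9, ACs plus both single rises would give 2823.9 and the observed mean was 1251.4, or 44.3% (difference -1572.4, SE 286.9). For Cxcl10 the sum was 5055.1 and the observed mean 3983.0, or 78.8% (difference -1072.1, SE 580.5). For Cxcl11 the sum was 277.2 and the observed mean 201.0, or 72.5% (difference -76.3, SE 33.6). These values were chosen after seeing the data and carry no test. Multiplying the single folds would have given 42670 for Cxcl10 and 3484 for Cxcl11.

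**Figure D3:**
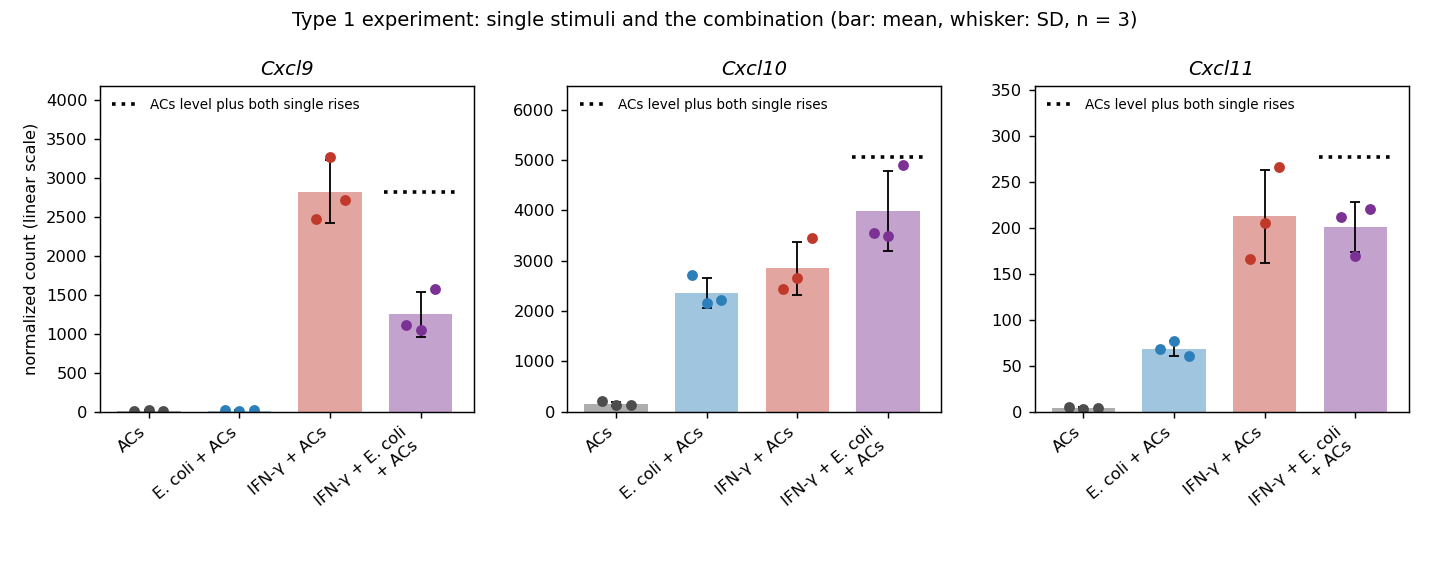
Normalized counts (vertical axis, linear from 0) of each ligand in the 4 groups of the Type 1 experiment, with bars for means, whiskers for SD, points for the 3 libraries and a dotted line at the ACs level plus both single rises. The observed mean stands at 44.3% of that line for Cxcl9, 78.8% for Cxcl10 and 72.5% for Cxcl11.

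The ratio of Cxcl9 to Cxcl10 within each library separated all 4 groups. Its mean log2 value was -3.43 ± 0.85 (SD, n = 3) in ACs, -7.14 ± 0.53 in E. coli + ACs, -0.01 ± 0.32 in IFN-γ + ACs and -1.68 ± 0.05 in IFN-γ + E. coli + ACs. A two-sided exact permutation test gave p = 0.10 for each of the 4 comparisons of this ratio, the smallest value that 3 against 3 libraries can give (adjusted p = 0.12 over 12 tests). The log2 ratio of Cxcl10 to Cxcl11 was 4.94 ± 0.2 in ACs, 5.08 ± 0.25 in E. coli + ACs, 3.75 ± 0.11 in IFN-γ + ACs and 4.29 ± 0.21 in the combination. Its difference between E. coli + ACs and ACs was 0.14 (exact permutation p = 0.50), and its difference between the combination and ACs, -0.65, turned to 0.14 when 5 was added to each value in place of 1.

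IL-4 with ACs left no called difference in the ligands. Cxcl10 was the 1 ligand with counts high enough to test, with a log2 difference of -0.45 (SE 0.58, 95% interval -1.74 to 0.85, adjusted p = 0.83 by limma), in a comparison where 1.09% of 10669 genes were called (0.74% higher and 0.347% lower) and 17.3% did not overlap. Its sign reversed without the shallow ACs replicate 3 library, at 0.22 (adjusted p = 0.88 by limma). It stayed negative without both replicate 3 libraries, at -0.32 (adjusted p = 0.34 by limma, an alternative added after seeing the data). Cxcl9 stood at 0.319 reads per 1000000 in IL-4 + ACs (95% Poisson interval 0.104 to 0.745) and 0.527 in its ACs (0.194 to 1.15). Cxcl11 stood at 0.128 (0.0155 to 0.461) and 0.176 (0.0213 to 0.635). With all genes above 0 in any library kept, the log2 differences were -0.34 for Cxcl9 and -0.80 for Cxcl11 (adjusted p = 0.89 and 0.81 by limma), and neither passed. These counts leave small differences undetectable.

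The receptor and the upstream ligand IFN-β were at the limit of detection in the same libraries. Cxcr3 had 1 read, in IFN-γ + ACs, among 75899026 reads in all 18 libraries. Ifnb1, which encodes IFN-β, had 0 reads, which allows up to 0.0395 reads per 1000000 over all 18 libraries together. The limit for a single group is higher, as E. coli + ACs held 14850512 reads. Of 6 receptors and binding partners of the ligands, 2 had counts high enough to test in the Type 1 experiment. Sdc4, a heparan sulfate proteoglycan that can hold chemokines, was higher in E. coli + ACs (log2 difference 0.59, adjusted p = 0.0083 by limma) and in IFN-γ + ACs (0.86, adjusted p = 0.00014), with an interaction of -1.07 (adjusted p = 0.0026). Sdc1, of the same family, was lower with the combination than with IFN-γ alone (-0.98, adjusted p = 0.033 by limma).

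The list of the IFN-γ receptor, its JAK-STAT pathway and feedback held 15 genes tested by limma, of which 0 were called higher and 1 lower with E. coli, 7 higher and 1 lower with IFN-γ, and 8 higher and 0 lower with the combination. Among all genes tested, 5.05% were called higher and 5.25% lower with E. coli, and 11.4% and 9.96% with IFN-γ. With the combination these shares were 14.7% and 17.2%, and they apply to the lists below as well. Jak2 was the gene lower with E. coli (-0.76, adjusted p = 0.00035 by limma). Irf1, a transcription factor that IFN-γ induces, stood at 783.3 ± 44.2 (SD, n = 3) in ACs, 690.0 ± 52.4 in E. coli + ACs, 4413.9 ± 242.3 in IFN-γ + ACs and 5578.0 ± 834.6 in the combination. Its mean was higher with the combination than with IFN-γ alone, in the comparison in which Cxcl9 was lower, and the difference missed the threshold (0.33, adjusted p = 0.054 by limma).

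Irf8, a transcription factor of myeloid cells, stood at 102.6 ± 21.4 (SD, n = 3) in ACs, 68.8 ± 10.3 in E. coli + ACs, 610.0 ± 110.9 in IFN-γ + ACs and 218.9 ± 80.6 in the combination. It fell by 1.53 on the log2 scale from IFN-γ alone to the combination (SE 0.25, adjusted p = 0.00022 by limma), in the same direction as Cxcl9. Ifngr1, the ligand-binding chain of the IFN-γ receptor, was lower with IFN-γ (-0.60, adjusted p = 0.0082 by limma) and higher with the combination than with IFN-γ alone (0.85, adjusted p = 0.00077). Ifngr2, the other chain, was also higher with the combination than with IFN-γ (0.63, adjusted p = 0.011 by limma). Socs1, an inhibitor of JAK signalling, rose by 1.48 with IFN-γ and 1.45 with the combination (adjusted p = 5.7e-05 and 4.4e-05 by limma), and its interaction was -0.24 (adjusted p = 0.73).

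Of 6 tested genes of type I interferon signalling, limma called none with E. coli, and 2 were higher with IFN-γ and with the combination. These were Ifnar2, a chain of the type I interferon receptor (0.97 and 1.21 on the log2 scale), and Tbk1, a kinase upstream of IRF3 (0.93 and 1.08). Of 20 antiviral genes linked to type I interferon, 5 were higher with E. coli, 9 with IFN-γ and 10 with the combination, with 1 lower in the last, and 8 had a negative interaction while 0 had a positive one. Over all genes tested, 4.28% had a negative called interaction and 3.16% a positive one. Rsad2, an antiviral radical enzyme, rose by 1.10 with E. coli and 1.61 with IFN-γ (adjusted p = 1.4e-05 and 3.6e-08 by limma). The median over the list was 0.26 with E. coli and 0.43 with IFN-γ on the log2 scale, beside 0.00 over all genes tested in each of these comparisons.

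The TLR4 and NF-κB pathway list held 19 tested genes, of which 6 were higher with E. coli, 4 higher and 1 lower with IFN-γ and 8 higher with the combination by limma. Irak3, which restrains TLR signalling, rose by 1.61 with E. coli (adjusted p = 8.4e-08 by limma), by 0.68 with IFN-γ and by 2.25 with the combination. Nfkbiz, an atypical IκB protein, rose by 1.56 with E. coli and 2.04 with the combination. Tlr4 differed by -0.31 with E. coli and 0.28 with IFN-γ (adjusted p = 0.49 and 0.46 by limma). Nfkbia, which encodes IκBα, differed by 0.21 and 0.34 (adjusted p = 0.24 and 0.025), under the fold threshold.

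Target genes of the pathways were compared with the ligands. Of 25 IFN-γ target genes, limma called 4 higher with E. coli (median log2 difference 0.14), 25 with IFN-γ (2.53) and 24 with the combination (2.39). Serping1, the C1 inhibitor, rose by 5.78 with IFN-γ, Ciita, the class II transactivator, by 4.27 and Iigp1, an immunity-related GTPase, by 4.18. In this list 7 genes had a negative interaction and 4 a positive one, against 4.28% and 3.16% of all genes tested. Between the combination and IFN-γ alone 3 of these genes were higher and 5 lower, the latter including the MHC class II genes H2-Eb1 (-1.5), H2-Aa (-1.36) and Cd74 (-1.03), with adjusted p = 8e-05, 7.7e-06 and 0.00073 by limma. Cxcl9 differed by 0.20 with E. coli, 7.60 with IFN-γ and -1.19 with the combination against IFN-γ. In that last comparison 17 of the 25 IFN-γ target genes were not called, with a list median of -0.01. Among all genes tested, 8.61% were called lower in it and 5.96% higher. The macrophage markers were lower there, and a link between these changes was not tested.

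Of 19 TLR and NF-κB target genes tested, limma called 18 higher with E. coli (median 1.98), 11 with IFN-γ (0.85) and 17 with the combination (2.18), and none lower. Nos2, the inducible nitric oxide synthase, rose by 3.07 with E. coli, 6.13 with IFN-γ and 6.16 with the combination. Acod1, which makes itaconate, rose by 4.10 with IFN-γ and 4.48 with the combination. Their interactions were -3.05 for Nos2 and -2.12 for Acod1 (adjusted p = 5.8e-07 and 1.3e-05 by limma). In all, 9 of the 19 had a negative interaction and 0 a positive one, against 4.28% and 3.16% of all genes tested, and 10 were higher and 0 lower with the combination than with IFN-γ alone. Cxcl10 and Cxcl11 were raised by both stimuli with a negative interaction, but neither was among the genes called between the combination and IFN-γ alone (0.48 for Cxcl10 and -0.06 for Cxcl11). Cxcl11 differed by 5.37 with IFN-γ and 3.78 with E. coli, while the list median was higher with E. coli. With IL-4, limma called 5 of 19 TLR and NF-κB targets higher and 1 lower, beside 0.74% and 0.347% of all genes tested. Limma also called 1 dendritic cell and 2 eosinophil markers higher, 2 macrophage markers and 1 neutrophil marker lower, and none in the other lists.

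**Figure D4:**
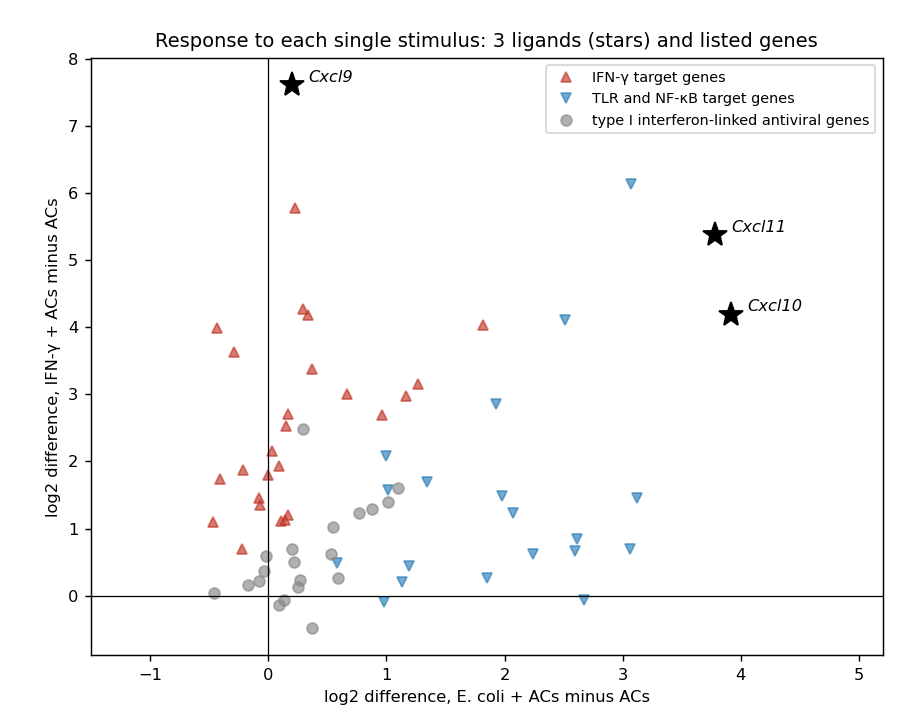
Log2 difference with IFN-γ (vertical axis) against log2 difference with E. coli (horizontal axis), each against the same 3 ACs libraries, for the 3 ligands (stars) and for the tested genes of 3 lists (symbols). Cxcl9 lies at 0.20 and 7.60, above the IFN-γ target genes along the vertical axis, while Cxcl10 (3.92 and 4.18) and Cxcl11 (3.78 and 5.37) lie to the right of every listed gene.

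The genes whose pattern was most like each ligand over the 12 libraries of the Type 1 experiment differed between Cxcl9 and its neighbours. Pearson's r of log2 values over 6746 genes with a mean of at least 50 is given as a description, since the libraries fall into 4 groups that set most of it. Closest to Cxcl9 were Iigp1 (r = 0.990), Serping1 (0.989), Psmb9 (0.989), Stx2 (0.988) and Serpina3f (0.985). Iigp1 stood at 249.4 in ACs, 313.8 in E. coli + ACs, 4519.0 in IFN-γ + ACs and 2403.6 in the combination. Closest to Cxcl10 were Tgif1 (0.994), Clec4e (0.992), Slc7a2 (0.984), Tnfrsf1b (0.977) and Cxcl11 (0.975). Clec4e, the receptor Mincle, stood at 423.3, 1569.4, 1816.7 and 2170.3 in the same order. Closest to Cxcl11 were Gclm (0.987), Procr (0.986), Slc7a2 (0.985), Srxn1 (0.984) and Tgif1 (0.984). Cxcl9 correlated with Cxcl10 at 0.654 and with Cxcl11 at 0.784.

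No gene next to the cluster was called higher with either single stimulus. On the Cxcl9 side, Sdad1 stood at 46.2 in ACs and differed by 0.66 with E. coli and 0.49 with IFN-γ (adjusted p = 0.056 and 0.11 by limma). Naaa, which encodes an acid amidase, was lower with E. coli (-1.44, adjusted p = 0.0019 by limma) and differed by -0.53 with IFN-γ (adjusted p = 0.19). Ppef2 had at most 5 reads in any group. On the Cxcl11 side, Nup54 differed by 0.01 and -0.33 (adjusted p = 0.99 and 0.37 by limma), Scarb2 by -0.18 and 0.45 (adjusted p = 0.39 and 0.0081, under 1.5-fold), and Fam47e had 0 reads.

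Art3 and the processed pseudogene Gm2673 overlap the cluster on the opposite strand. Art3 exons share 133 of the 2252 exonic bases of Cxcl10 (5.9%), and Gm2673 shares 1582 of the 3794 exonic bases of Cxcl11 (41.7%). The Art3 overlap, up to 92346770, lies at the 3′ end of Cxcl10, the end that CEL-Seq2 counts. Gm2673 starts at 92363904, in the 5′ part of Cxcl11, away from its 3′ end at 92359544. Whether reads were counted by strand is not given in the sources used here, so reads from these overlaps cannot be assigned with certainty. The group means of Art3 ranged from 0 to 6.74 normalized counts, and Gm2673 had 2 reads, both in IL-4 + ACs.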

How the data were processed

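RNA of mouse eosinophils cultured with ACs was sequenced with CEL-Seq2 in 18 libraries. For 54446 genes the authors deposited a signal, which is the count of reads in a library divided by its DESeq2 size factor, and all columns were used. The submitters' processing notes name GRCm38, cutadapt 1.10, TopHat2 2.1.0, Bowtie2 2.2.6, HTSeq 0.6.1 and DESeq2 1.26.0. The study's methods also describe a second pipeline, and which one made this table is not stated there. Whether molecular identifiers were collapsed is not given in the sources used here, so intervals cover counting error only. Values were whole multiples of 1 step per library, so reads were recovered for 100.0% of values above 0 (within 0.02 of a step). A symbol was found for 54409 identifiers.

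Groups and replicate numbers come from the titles and descriptions of the samples. Each experiment was fitted on its own libraries with limma 3.58.1 (R 4.3.3) on log2(normalized count + 1), over genes with a mean of at least 10. Genes were called at 1.5-fold or more with a Benjamini-Hochberg adjusted p below 0.05. Ratios were compared by two-sided exact permutation tests. Alternatives were a pseudocount of 5, all genes or those with a mean of 50 or more, a block for the replicate number, a common upper quartile, one fit of all 18 libraries, each library left out, and edgeR 4.0.16 or DESeq2 1.42.0 on recovered reads. On recovered reads edgeR and DESeq2 called 212 and 209 genes with IL-4, where limma called 116. The ligands, gene lists and alternatives were chosen with earlier results of these data known. Besides the ligands the text names the 3 largest changes past the threshold in a list, fixed genes of the pathways, the 5 genes most like each ligand and the genes next to the cluster. Some genes that this rule picks are not reported here. Other marker genes named only as present were chosen as examples after their values were seen. No promoter motif was searched, because no file used here defines one. In simulated data with 200 genes changed 4-fold, limma recovered 100% for the combination against ACs (12 false calls among 10004 genes), 89.5% for the interaction (7 among 10004) and 98% for IL-4 (3 among 10102). The changed genes were drawn from well-counted genes, every gene had the same dispersion, and only the combination or the IL-4 group was changed. Cxcl9 and Cxcl11 were too low in the IL-4 experiment to be drawn. These shares therefore do not give the power or the false calls of the real comparisons. Chi-square per degree of freedom between replicates was 4.19 to 14.69, so no libraries were alike within counting error. Same-numbered libraries did not deviate together, so they were not treated as pairs. Unstimulated eosinophils and secreted proteins are not analysed here.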

Additional observations from a re-analysis of the deposited data

Results flagged for a closer look

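The change that E. coli made to Cxcl10 and Cxcl11 differed between eosinophils with and without IFN-γ, by the interaction term of limma. For Cxcl10 the interaction was -3.44 on the log2 scale, and for Cxcl11 it was -3.84. Means of Cxcl10 went from 157.9 to 2365.3 with E. coli and from 2847.7 to 3983.0 when E. coli followed IFN-γ, and those of Cxcl11 from 4.2 to 68.7 and from 212.7 to 201.0.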

How the results depend on the processing

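The rises of Cxcl9 with IFN-γ and with the combination, the rises of Cxcl10 and Cxcl11 with each Type 1 stimulus, and the interactions of Cxcl10 and Cxcl11 kept direction and call under all alternatives run. For the other results the cause was not tested. Cxcl9 between E. coli + ACs and ACs reversed with 1 library left out (range -0.19 to 0.58, with -0.19 and -0.03 below 0). Cxcl9 between the combination and IFN-γ lost its call with all 18 libraries in one fit (-1.19) and ranged from -1.37 to -1.08 with 1 library left out. The Cxcl9 interaction passed with a pseudocount of 5 (-1.33, adjusted p = 0.027 by limma), a mean of at least 50 (-1.39, adjusted p = 0.045) and DESeq2 (-1.31, adjusted p = 0.0095), and ranged from -1.77 to -0.99 with 1 library left out, passing without ACs replicate 2 (-1.77), E. coli + ACs replicate 2 (-1.70) or IFN-γ + E. coli + ACs replicate 3 (-1.57). Cxcl10 lost its call between the combination and E. coli with all 18 libraries in one fit (0.74). With 1 library left out it ranged from 0.58 to 0.84 there, from 0.32 to 0.63 between the combination and IFN-γ, and from -0.99 to 0.22 for IL-4, where 0.22 was the reversal. Cxcl11 between the combination and IFN-γ ranged from -0.23 to 0.11 with 1 library left out, reversing at 0.11 (without IFN-γ + ACs replicate 3) and 0.05 (without combination replicate 2). The Cxcl10 to Cxcl11 ratio between the combination and ACs was 0.14 with a pseudocount of 5. Ratios were not compared between the IL-4 groups, where Cxcl9 and Cxcl11 had at most 4 reads in any library.

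Of all genes, the interaction called 756, or 495 with all 18 libraries in one fit and 400 to 1026 with 1 library left out (400 without E. coli + ACs replicate 1, 439 without ACs replicate 3, 486 without IFN-γ + ACs replicate 2). IL-4 called 116, or 208 with all genes, 212 with edgeR, 209 with DESeq2, 221 with all 18 libraries, 656 without both replicate 3 libraries (an alternative chosen after seeing the data) and 47 to 130 with 1 library left out. With a common upper quartile the median log2 difference of all genes was -0.18 between the combination and ACs (-0.05 as reported) and -0.15 against E. coli (-0.04), and the share of calls that were higher fell from 46.1% to 34.4% and from 50.6% to 36.3%. The ligands kept their direction and calls there, at 6.28, 4.52 and 5.18 for Cxcl9, Cxcl10 and Cxcl11 against ACs and 6.10, 0.63 and 1.42 against E. coli.

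Same-numbered libraries correlated in their deviations from group means at -0.089 to 0.085 over 18 pairs of the Type 1 experiment and 0.001 to 0.021 over 3 of the IL-4 experiment, and 6 of 12 and 0 of 6 libraries correlated best with their own number. With the replicate number as a block, Cxcl9 between the combination and IFN-γ was -1.19 (adjusted p = 0.014 by limma), the Cxcl9 interaction -1.39 (adjusted p = 0.07), and the interactions of Cxcl10 and Cxcl11 -3.44 and -3.84. The block changed no call of a ligand, and IL-4 called 74 genes under it. Depth limits Cxcl9 and Cxcl11 in the IL-4 experiment, where 3 reads stand for up to 16.1 normalized counts.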
